A study of Chlamydomonas reinhardtii with 42 samples.

Results

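The comparison is between the Chlamydomonas reinhardtii strains DHC16 and A31 at 0 h, before cobalamin (vitamin B12) and thiamine could act on the cultures. It rests on 3 RNA sequencing libraries of each strain, numbered 1, 4 and 7, out of 17 libraries in the deposited table of normalized counts. All 17114 genes of that table were considered, and 13400 of them averaged 1 or more on the per-million scale in these 6 libraries and were tested. Both strains grew in Tris-acetate medium at 25°C, in light, dim light or darkness, and the labels assign none of these to a sample. Per the labels the vitamins deplete ClpP1, and neither the genotype of a strain nor the strain that is depleted is given. Libraries taken after 12 h and 48 h of vitamins served only to see whether a strain difference was also present in other libraries.

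Chlamydomonas is a unicellular green alga that swims with a pair of flagella, which it also calls cilia, and that grows on acetate as well as by photosynthesis. ClpP1 is a chloroplast-encoded subunit of the Clp protease, which degrades proteins of the chloroplast stroma. In vitamin-repressible strains of this alga, a nuclear gene needed for expression of a chloroplast gene is placed under a promoter or riboswitch that vitamins turn off. At 0 h such a system has not been switched, so a strain difference at that time precedes the treatment. The clpP1 transcript was not analysed here, so the labels were not checked on the targeted gene.

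The 6 libraries held 8049440 to 12109846 reads. Rank correlations were 0.985 to 0.989 within A31, 0.976 to 0.983 within DHC16 and 0.962 to 0.978 between the strains. The median gene had an SD between libraries of 0.196 on the log2 scale in A31 and 0.267 in DHC16. The 10 most abundant genes took 10.7 to 12.5% of reads in A31 and 14.6 to 18.1% in DHC16. The deposited totals ran from 8382534 to 9603883 in A31 and from 11875128 to 16502090 in DHC16, so the authors' scaling factors were not proportional to depth. These factors lay within 0.983 to 1.03 times those given by the TMM method.

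DHC16 differed from A31 in 1734 genes, of which 926 were higher and 808 were lower (limma, Benjamini-Hochberg adjusted p under 0.05 over all tested genes). These make 6.91% and 6.03% of the tested genes, and 669 of them differed by more than 2-fold. The median log2 difference (DHC16 minus A31) of all tested genes was -0.01. With per-million scaling the median fell to -0.71, with 137 genes higher and 7346 lower. That scaling moves nearly all genes by the same amount, so the order of the genes is hardly affected and the number on each side of 0 is. With TMM scaling 839 were higher and 917 lower, and with quantile scaling 662 and 759. Among the higher genes, 906 kept a positive difference under quantile scaling, as did 572 with per-million scaling.

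The edgeR test on whole reads called 910 genes higher and 979 lower, and DESeq2 called 1008 and 797. The counts depended more on single libraries. Without A31 library 7, 280 genes were higher and 249 lower. Without A31 library 1 the numbers were 498 and 354, and without DHC16 library 4 they were 410 and 483. Libraries with the same number deviated together at 0 h, but the labels do not say what a number marks. The main fit did not use the number. With the number as a replicate block 1853 genes were higher and 1515 lower. All 1734 genes called without it as a replicate block were also called with it.

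Abundant genes tended to be higher in DHC16. In the decile of genes with the highest mean level, 353 were higher, 50 were lower and the median log2 difference was 0.32. In the lowest decile, 20 were higher and 66 lower, with a median of -0.33. Quantile scaling gives the libraries 1 common distribution, and under it the same medians were 0.03 and 0.03. The 5 genes with the largest shares of reads in DHC16 carry no name. They took 1.53 to 3.01% of reads each in DHC16 and 0.792 to 2.11% in A31, and all 5 were called higher. Since they were chosen by their shares in DHC16, these calls describe them and test nothing.

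The strains also differed along the genome. When tested genes were placed in the order of their identifiers, a stretch of 196 successive genes, from Cre03.g183150 to Cre03.g194535, stood at a median log2 difference of -0.97, or 1.96-fold lower in DHC16 relative to all tested genes. The quartiles within the stretch were -1.24 and -0.75. Of its genes, 190 had a negative difference, 144 were called lower and 1 was called higher. On the deposited scale, the median log2 level of the stretch, measured from the midpoint of both strains at 0 h, was 0.48, 0.50 and 0.49 in A31 libraries 1, 4 and 7. It was -0.45, -0.54 and -0.45 in the DHC16 libraries. The strains did not overlap, and the spread within each was small beside the gap between them.

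**Figure D1:**
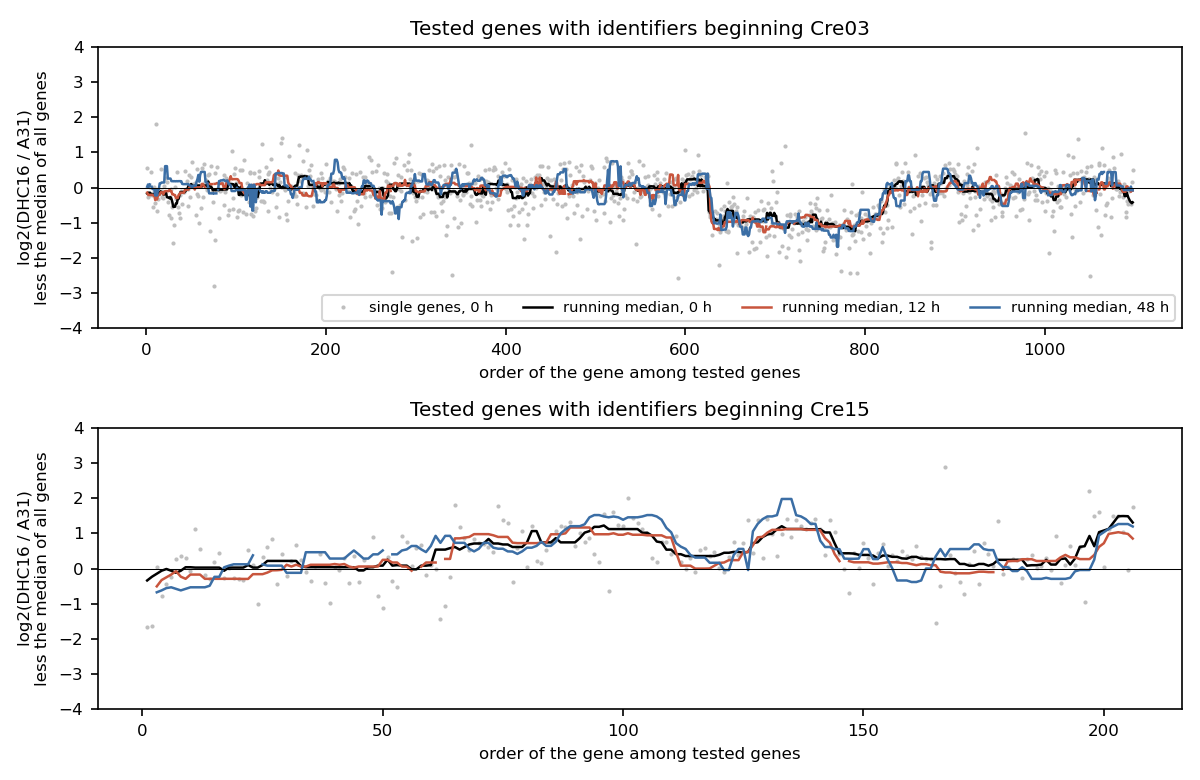
Strain difference of tested genes in identifier order, for the prefixes Cre03 (1098 genes) and Cre15 (206 genes). Grey points are single genes at 0 h (clipped at the axis limits), and lines are running medians over 15 genes at 0, 12 and 48 h, on the log2 scale and less the median of all tested genes. The Cre03 lines drop near gene 626, stay low and return near gene 821 at all 3 times.

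The stretch was found in the 0 h values, so its counts at 0 h describe it and test nothing, whereas the 12 h and 48 h libraries were not used to find it. At 12 h 192 of its genes were tested, 172 of them were lower and 1 was higher in DHC16, against 9.26% lower and 8.26% higher over all genes at that time. Its median was -0.98 at 12 h and -1 at 48 h. A scan of the 12 h libraries alone placed the stretch between Cre03.g183250 and Cre03.g194600, with 203 genes. The order of identifiers was checked against the RefSeq gene table. There 184 of the 196 genes were matched, and 0 other tested genes with a match lay between the outermost of them. Over all prefixes, 81.1% of successive matched genes came in the same order in that table. Position is given by identifier only, since the genome build of the files is not given in the sources used here.

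The stretch holds 13 genes with a name. FAP251, a protein of the flagellum, was at 615, 551 and 772 normalized counts in A31 and at 172, 183 and 178 in DHC16. Its log2 difference of -1.84 ± 0.16 (SE, adjusted p = 0.00013) was larger than that of the stretch. ODA13, a light chain of the outer dynein arm that powers flagellar beating, was at 1390, 1515 and 1774 in A31 and 943, 681 and 695 in DHC16 (log2 -1.02 ± 0.16, adjusted p = 0.0038). SSS2, a soluble starch synthase, was at 7406, 7335 and 7084 in A31 and 4133, 3811 and 4460 in DHC16 (log2 -0.82 ± 0.14, adjusted p = 0.0049). The groups did not overlap in any of these genes. CGLD15, annotated as lipase-like, differed by log2 -1.32, and RAN1, a Ran-like small GTPase, had a log2 difference of -0.21 that was not called.

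Stretches with the opposite sign lay on 2 other prefixes. On Cre15, 3 stretches of 50, 18 and 12 tested genes had medians of 0.76, 1.12 and 1.31. Of these genes, 24, 13 and 9 were called higher and 1, 0 and 0 were called lower. Their medians at 12 h were 0.98, 1.10 and 0.85. Between members of the stretch of 50, RefSeq places 5 other tested genes. That of 12 genes, like that on Cre33, had 0 matched genes, so its order was not checked. At 12 h and 48 h the stretch of 12 genes lay at -0.18 to 0.43 in DHC16 libraries and at -0.99 to -0.52 in A31 libraries, on the scale measured from the 0 h midpoint. On Cre33 all 21 tested genes formed 1 stretch with a median of 1.07, or 2.10-fold higher in DHC16, and 13 of them were called higher. At 12 h 14 of the 21 were called higher, 1 lower, and the median was 1.00. NDA2, a type II NADH dehydrogenase, is its named gene. It was at 536, 475 and 522 in A31 and 956, 1079 and 1085 in DHC16 (log2 1.02 ± 0.13, adjusted p = 0.0014). The smaller stretches on Cre08 (7 genes, median -0.54) and Cre14 (7 genes, 0.54) were not found in the scan at 12 h.

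**Figure D2:**
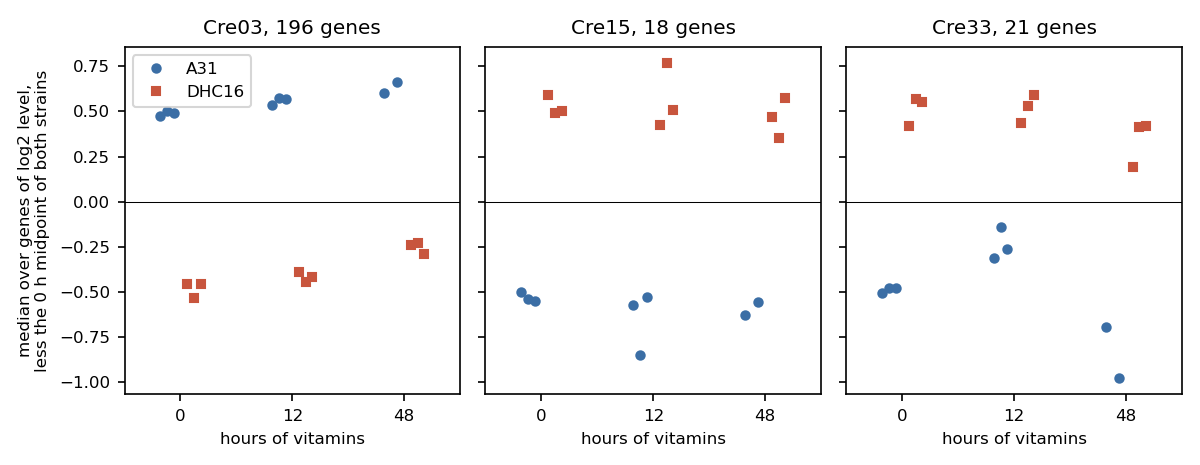
Median log2 level of 3 stretches of neighbouring genes in each of the 17 libraries, by strain and hours of vitamins, measured from the midpoint of both strains at 0 h. The Cre15 stretch shown is the one of 18 genes. The strains lie on opposite sides of 0 in the 3 stretches shown and at all 3 times, with DHC16 below A31 for the Cre03 stretch and above it for the Cre15 and Cre33 stretches.

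On the 16 other prefixes with at least 100 tested genes, 4.09 to 8.72% of genes were higher and 3.72 to 7.03% lower, and their medians lay between -0.05 and 0.04. Outside the stretches 864 genes were higher and 660 lower. A gene called lower was followed by another such gene in 19.9% of cases over all genes and in 8.08% outside the stretches, where 5.04% of genes were lower. For higher genes these shares were 14.9% over all genes and 11.5% outside, where 6.6% were higher.

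A few transcripts had no reads, or only a few, in 1 of the strains. Cre39.g786050 was at 179, 285 and 276 normalized counts in A31 and had 0 reads in all 3 DHC16 libraries, at least 46.7-fold lower against a floor of 3 reads per library. Cre71.g794400, singled out after its values were seen, was at 120, 113 and 93.5 in A31 and also had 0 reads in DHC16, at least 20.6-fold lower. Cre29.g778950 was at 254, 327 and 460 in A31 and had 4 reads over the 3 DHC16 libraries together. In the other direction, Cre39.g785900 had 0 reads in A31 and stood at 59.2, 57.9 and 67.9 in DHC16, at least 23.9-fold higher. Cre48.g789400 had 8 reads over the 3 A31 libraries and stood at 363, 309 and 354 in DHC16. These genes carry no name. Cre39.g786050 and Cre39.g785900 share a prefix and went opposite ways. With at most 3 reads per library taken as near 0, Cre29.g778950, Cre39.g786050 and Cre71.g794400 met this in all 3 DHC16 libraries at 0 h. Of these 3, 2 also met it in every later DHC16 library while every later A31 library had more, some with 1 or 2 reads at 48 h. Cre39.g785900 did so in the other direction, and its DHC16 values at 12 h were down to 5.89, 5.9 and 8.37.

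Names are at hand for 681 of the tested genes. They come from the authors' rapamycin tables, so each had passed the authors' selection there. Of these, 10.3% were higher and 13.4% lower in DHC16. The genes with the largest differences are described next by what they do, and among all tested genes the groups of 3 libraries did not overlap in 34.3%. The 12 genes with the largest difference in each direction were chosen among those whose groups do not overlap. With per-million scaling, whose median is shifted, the calls of 15 of the genes described were lost, all of them higher on the deposited scale: BBS1, CSP41b, DNJ34, GSA, GSTS1, HSP22E, HYDEF, LCI30, LHCB4, NDA2, PHC2, PRPL6, PRPS16, PSBQ and SMC6A. The calls of 27 were lost when 1 library or another was left out. For 26 of them it was so without A31 library 7: APG10, CPC1, CYG51, DNJ34, FAP296, FXL7, GSA, GSTS1, HYDEF, LCI30, MAS1, MCM3, MCM5, MITC7, NDA1, PGR5, PHC2, PRPL6, PRPS16, PSBQ, PTB6a, RBCS2A, RPS25, RSP1, SMC6A and ZMP1. The other, FXL1, was not called without A31 library 1 or 4.

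**Figure D3:**
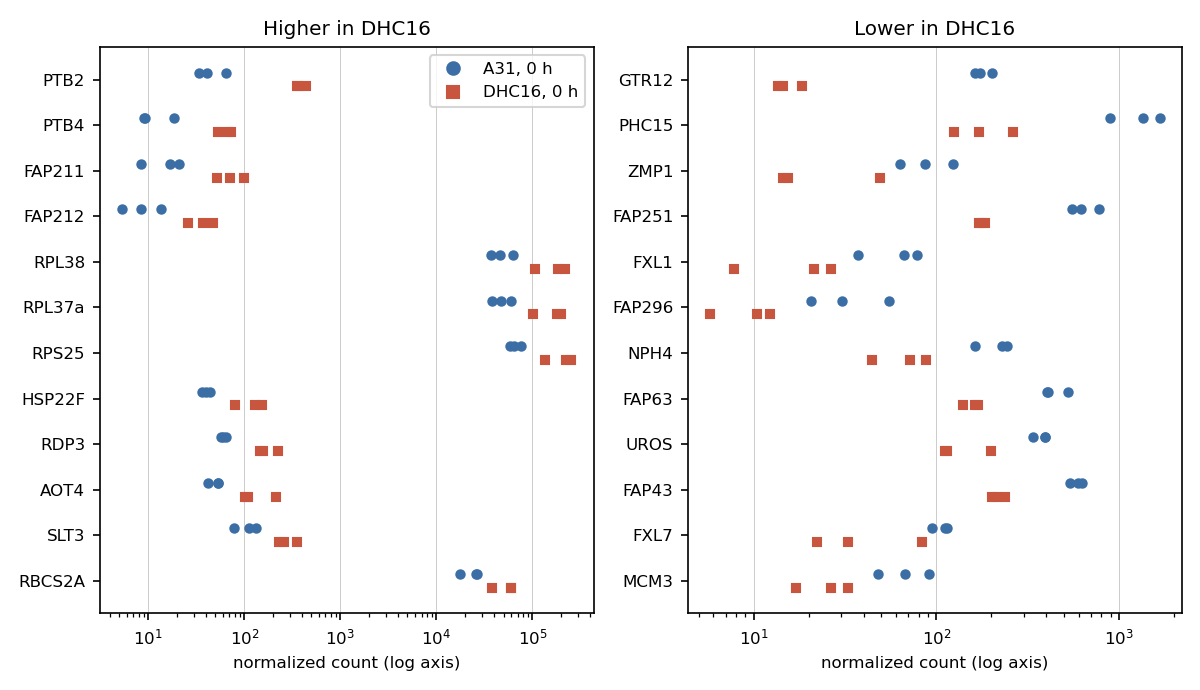
Normalized counts (log axis) of the 12 named genes with the largest differences in each direction, in each of the 3 A31 libraries (circles) and 3 DHC16 libraries (squares) at 0 h. Circles and squares are separate in every row, from PTB2 with a log2 difference of 3.07 to GTR12 with -3.46.

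Several nutrient transporters were among the named genes. PTB2, a sodium/phosphate symporter, was at 33.6, 64.1 and 40.8 normalized counts in A31 and 359, 436 and 350 in DHC16. The log2 difference was 3.07 ± 0.23 (adjusted p = 4.6e-05). Its relative PTB4 was at 8.95, 18.3 and 9.14 in A31 and 67.4, 73.3 and 53.5 in DHC16 (log2 2.38 ± 0.34, adjusted p = 0.002). Both were higher in DHC16 under each scaling. PTB6a, of the same family, went the other way, from 925, 546 and 623 in A31 to 406, 365 and 496 in DHC16 (log2 -0.70 ± 0.20, adjusted p = 0.041), and its call was lost on leaving out A31 library 1 or 7 or DHC16 library 1 or 4. Of 6 tested genes of phosphate uptake, 2 were higher and 1 lower, beside 10.3% higher and 13.4% lower among all named genes. SLT3, a sodium/sulfate co-transporter, was at 78.3, 113 and 131 in A31 and 351, 228 and 256 in DHC16 (log2 1.37 ± 0.22, adjusted p = 0.0041). It was the 1 called gene of 7 of sulfur uptake and assimilation. AOT4, an amino acid transporter, had a log2 difference of 1.43 ± 0.27 (adjusted p = 0.0079).

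Small heat shock proteins bind unfolded proteins, and HSP22E and HSP22F are placed in the chloroplast. HSP22F was at 40.3, 36.6 and 43.6 in A31 and 153, 79.1 and 131 in DHC16 (log2 1.52 ± 0.26, adjusted p = 0.0046). HSP22E was at 88.4, 90.8 and 105 in A31 and 272, 151 and 206 in DHC16 (log2 1.10 ± 0.22, adjusted p = 0.0086). How reads shared by these close paralogs were counted is not known, so both values are uncertain. They were the 2 called genes among 8 chloroplast chaperones, whose median was 0.32, beside 10.3% higher and 13.4% lower among all named genes. CLPB3, the chloroplast member of the Hsp100 family, was at 592, 616 and 543 in A31 and 788, 523 and 666 in DHC16, and the groups overlapped (log2 0.16 ± 0.16, adjusted p = 0.56). Of 5 chloroplast proteases limma called 0, with 2 at an unadjusted p under 0.05, while edgeR called 1, DESeq2 0, and the replicate block 1 higher and 1 lower. DNJ34 was the 1 called gene of 9 other chaperones (log2 0.56, adjusted p = 0.039), and its difference was -0.16 with per-million scaling. It was also not called with TMM or quantile scaling or by the edgeR test.

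The 3 named genes of cytosolic ribosomal proteins were higher in DHC16 as the deposited values are scaled. Other genes of this class, without a name here, were not collected. RPL38 of the large cytosolic subunit was at 63242, 37154 and 46107 in A31 and 216470, 184180 and 106490 in DHC16 (log2 1.76 ± 0.32, adjusted p = 0.0061). RPL37a and RPS25 differed by 1.70 and 1.59, so all 3 named cytosolic members were higher. Among all named genes 10.3% were higher, and in the decile of most abundant genes 353 of 1340 were. With 3 members the count says little about the class. Their median was 0.58 with quantile scaling, where 2 of the 3 were called, and 0.98 with per-million scaling, where all 3 were. These genes are among the most abundant, and the share of reads in the most abundant genes was itself higher in DHC16. The part of this in their difference was not tested.

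Of 29 nuclear genes of plastid ribosomal proteins, which build the ribosome inside the chloroplast, 15 were higher and 0 lower, and all 29 differences were positive, with a median of 0.57. Among all named genes 10.3% were higher, and among all tested genes 6.91%. These genes are abundant, with a median level of 4410. In the decile of most abundant genes, 353 of 1340 were higher and the median was 0.32. The part of abundance in their difference was not tested. PRPS16 was at 3359, 2879 and 2369 in A31 and 7271, 5851 and 4153 in DHC16 (log2 0.98 ± 0.21, adjusted p = 0.012). PRPL6 was at 2997, 2992 and 2580 in A31 and 6326, 5378 and 3884 in DHC16 (log2 0.84 ± 0.18, adjusted p = 0.014). In both genes DHC16 library 7 was the lowest of its strain. The group's median was 0.16 with quantile scaling, where 2 were higher, and -0.15 with per-million scaling, where 0 were higher and 5 lower. Relative to the shift of all genes the latter was 0.56. Without A31 library 7, 1 gene was higher. Without DHC16 library 4 it was 2, without A31 library 4 it was 8, and without DHC16 library 1 it was 9. With the replicate block 24 were higher.

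Of 26 tested photosynthesis genes, 4 were higher and 1 lower, with a median of 0.31, and under the replicate block 11 were higher and 3 lower. Among all named genes 10.3% were higher and 13.4% lower. The list's median level was 1730. In the decile of most abundant genes, which starts at 727, 353 of 1340 were higher and the median was 0.32. With quantile scaling the list's median was 0.09, with 2 higher and 1 lower. With per-million scaling 1 was higher and 10 lower. RBCS2A, annotated as a small subunit of Rubisco, was at 25999, 26610 and 17762 in A31 and 59590, 59961 and 37926 in DHC16 (log2 1.15 ± 0.25, adjusted p = 0.014), and its call was lost with quantile scaling (0.22). LHCB4, a minor antenna protein of photosystem II, differed by 1.09 ± 0.20 (adjusted p = 0.0059), and PSBQ, of the oxygen-evolving complex, by 1.02 ± 0.21 (adjusted p = 0.01). PGR5, a thylakoid protein of cyclic electron flow, was lower, at 646, 351 and 569 in A31 and 292, 164 and 228 in DHC16 (log2 -1.18 ± 0.25, adjusted p = 0.012). Without A31 library 7, 1 gene was higher and 0 were lower, and without A31 library 1, 3 were higher and 0 lower. Without DHC16 library 4, 2 were higher. CSP41b, a chloroplast RNA-binding protein, was higher by 0.98 ± 0.17 (adjusted p = 0.0055) and was not called with per-million scaling.

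**Figure D4:**
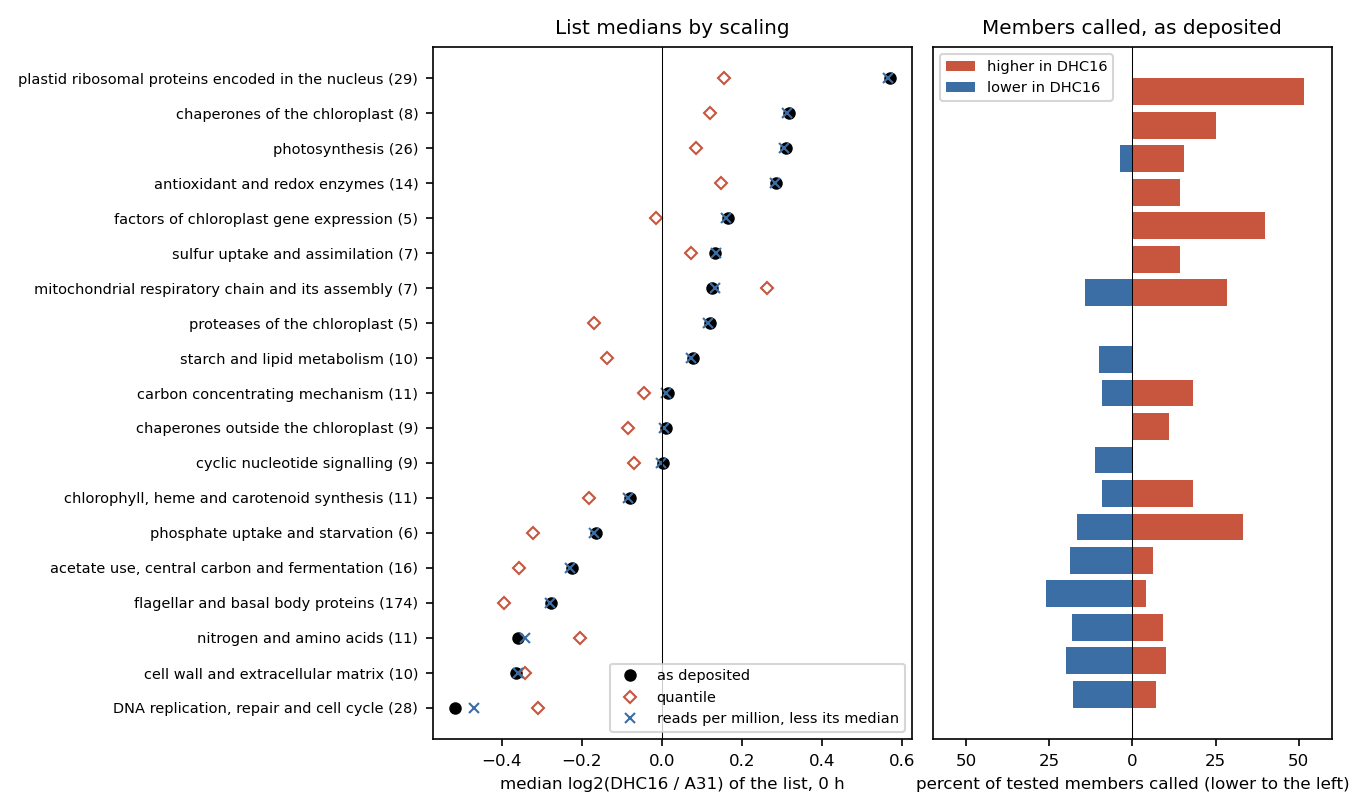
Left, median log2 difference between DHC16 and A31 at 0 h of each gene list with at least 5 tested members (number in brackets) as deposited, with quantile scaling and with per-million scaling less the median of all genes. Right, percent of tested members called higher or lower on the deposited scale. Plastid ribosomal proteins head the higher lists at 0.57 and move to 0.16 with quantile scaling, while flagellar genes are at -0.28 and -0.39.

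Of 174 tested genes of the flagellum and basal body, 45 were lower in DHC16 and 7 higher, with a median of -0.28. Among all named genes 13.4% were lower and 10.3% higher, and among all tested genes 6.03% and 6.91%. Quantile scaling gave 58 lower and 3 higher. The Cre03 stretch and the other stretches hold 5 of these genes, and without them 41 were lower and 7 higher. FAP43 was at 593, 538 and 626 in A31 and 202, 237 and 212 in DHC16 (log2 -1.43 ± 0.14, adjusted p = 0.00033). FAP63 was at 410, 405 and 528 in A31 and 163, 168 and 140 in DHC16 (log2 -1.5 ± 0.16, adjusted p = 0.00056). NPH4, similar to the human nephrocystin that serves at the base of cilia, was at 243, 163 and 229 in A31 and 87.8, 44.4 and 71.8 in DHC16 (log2 -1.66 ± 0.26, adjusted p = 0.0032).

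Among 13 radial spoke proteins, which link the outer microtubules to the central pair, 5 were lower and 0 higher, with a median of -0.36. RSP1 was at 520, 489 and 649 in A31 and 347, 295 and 303 in DHC16 (log2 -0.80 ± 0.15, adjusted p = 0.0079). Of 4 central pair proteins 3 were lower, among them CPC1 (log2 -0.79 ± 0.16, adjusted p = 0.0088), which lies in the Cre03 stretch. Of 10 subunits of intraflagellar transport, which carries cargo along the flagellum, and of the BBSome, 0 were lower, 1 was higher and the median was 0.05. The higher gene was BBS1, at 830, 943 and 894 in A31 and 1977, 2324 and 1222 in DHC16 (log2 1.00 ± 0.21, adjusted p = 0.011). Of 19 dynein genes 2 were higher and 1, ODA13, was lower, with a median of 0.16. FAP211 and FAP212 were higher by 2.24 ± 0.37 (adjusted p = 0.0041) and 1.94 ± 0.41 (adjusted p = 0.012). Beside the counts of these groups, 10.3% of all named genes were higher and 13.4% lower. The groups were formed after values were seen, and no test of the difference between them was made. Without A31 library 7, 17 flagellar genes were lower, and without A31 library 1, 27 were. The higher genes numbered 3 to 10 with 1 library left out. With the replicate block 63 were lower and 15 higher.

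At 12 h the median strain difference of flagellar genes had the other sign. In these other libraries 105 of the 174 genes were higher in DHC16 and 6 lower, with a median of 0.57, against 8.26% higher and 9.26% lower over all genes tested at 12 h. The change of the strain difference from 0 h to 12 h was tested in 1 fit of 12 libraries and was called for 500 genes, 3.49% of those tested. Among them were 77 flagellar genes that moved up and 1 that moved down. FAP43 went from log2 -1.43 to 0.68, a change of 2.10 (adjusted p = 0.00062). At 12 h it was at 229, 341 and 196 in A31 and 435, 356 and 404 in DHC16. The number that moved up was 39 without A31 0 h library 7, 45 without DHC16 12 h library 16 and 48 without DHC16 12 h library 10. At 12 h alone, 62, 63 and 67 genes were higher without DHC16 libraries 16, 13 and 10.

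**Figure D5:**
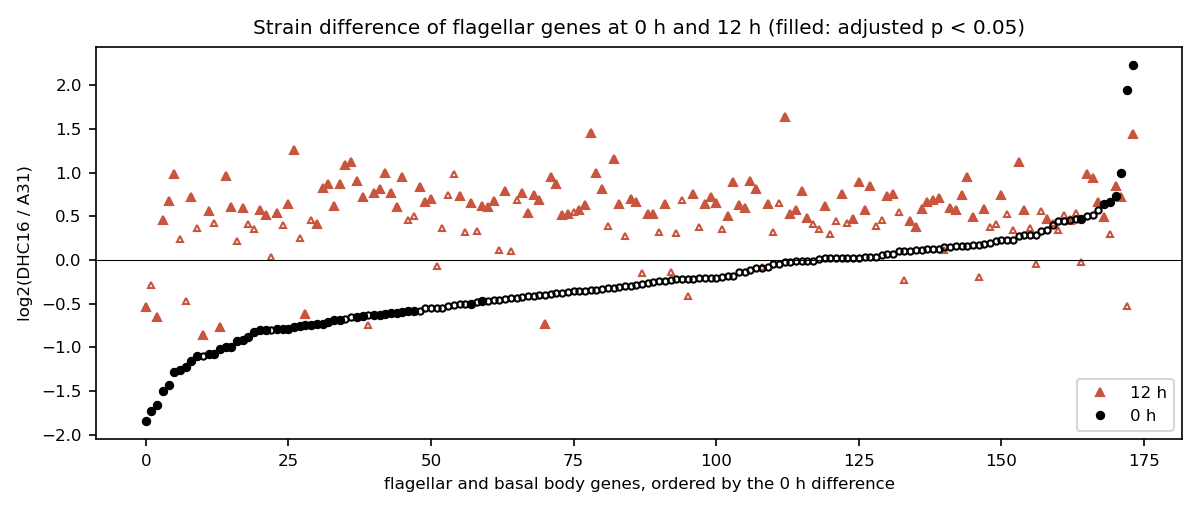
Log2 difference between DHC16 and A31 of flagellar and basal body genes, ordered by the 0 h value. Circles are 0 h and triangles 12 h, filled where the adjusted p was under 0.05. Most 0 h values lie below 0 (median -0.28) and most 12 h values above it (median 0.57).

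Cell wall and other secreted proteins included PHC15, a pherophorin, a class of hydroxyproline-rich wall glycoproteins. It was at 891, 1359 and 1665 in A31 and 261, 172 and 124 in DHC16 (log2 -2.83 ± 0.27, adjusted p = 3e-04). PHC2, of the same class, was at 702, 803 and 701 in A31 and 913, 1127 and 1776 in DHC16 (log2 0.74 ± 0.21, adjusted p = 0.041). The PHC2 call was lost with per-million scaling, TMM or quantile scaling, and on leaving out any library other than DHC16 library 1. Of 10 tested genes of the wall 2 were lower and 1 higher, beside 13.4% lower and 10.3% higher among all named genes. GTR12, a glycosyl transferase outside this list, was at 172, 163 and 200 in A31 and 18.4, 13.5 and 14.4 in DHC16 (log2 -3.46 ± 0.22, adjusted p = 1.4e-05), the largest fall among named genes.

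In acetate use and central carbon metabolism, 3 of 16 genes were lower and 1 higher, with a median of -0.22, beside 13.4% lower and 10.3% higher among all named genes. ACS3, an acetyl-CoA synthetase that brings acetate into metabolism, was at 16730, 16329 and 16429 in A31 and 7018, 7038 and 7245 in DHC16 (log2 -1.22 ± 0.15, adjusted p = 0.0011). The libraries of each strain were close together and far from those of the other. MAS1, the malate synthase of the glyoxylate cycle, was at 11970, 11971 and 12089 in A31 and 6387, 7573 and 8145 in DHC16 (log2 -0.71 ± 0.16, adjusted p = 0.015). MAS1 was not called without A31 library 1 or 7 or DHC16 library 4. HYDEF, which assembles the iron hydrogenase, was higher by 0.67 ± 0.18 (adjusted p = 0.035), and its difference was -0.05 with per-million scaling. In respiration, NDA1 was lower (log2 -0.75 ± 0.17, adjusted p = 0.015), and NDA2 of the Cre33 stretch was higher.

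Tetrapyrrole synthesis makes chlorophyll and heme. UROS, uroporphyrinogen-III synthase, was at 395, 339 and 391 in A31 and 198, 114 and 111 in DHC16 (log2 -1.46 ± 0.22, adjusted p = 0.0027). GSA, glutamate-1-semialdehyde aminotransferase, was higher (log2 1.07 ± 0.31, adjusted p = 0.04), but was not called by the edgeR test or with per-million scaling. Of 11 genes of chlorophyll, heme and carotenoid synthesis, 2 were higher and 1 lower. Beside this and the other lists of this paragraph, 10.3% of all named genes were higher and 13.4% lower. Of 11 genes of nitrogen and amino acid recycling 2 were lower, among them AGT3 (log2 -1.10 ± 0.20, adjusted p = 0.0061), and 1 was higher. In the carbon concentrating mechanism LCI30 was higher by 0.84 ± 0.21 (adjusted p = 0.023) and MITC7 lower by log2 -0.56 ± 0.16 (adjusted p = 0.045). MITC7 was not called by DESeq2, without the filter on low genes, in the fit of 17 libraries or on leaving out any library other than DHC16 library 1. Of 14 antioxidant and redox enzymes 2 were higher, among them GSTS1 (log2 0.71 ± 0.19, adjusted p = 0.035), whose difference was -0.01 with per-million scaling.

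Of 28 replication and cell cycle genes, 5 were lower and 2 higher, with a median of -0.52. Among all named genes 13.4% were lower and 10.3% higher. The list's median level was 49.3, within the decile from 38.7 to 58.2, where all genes had a median of -0.16. With quantile scaling the list's median was -0.31, with 4 lower and 2 higher. Of the 4 named and tested subunits of the MCM helicase, which unwinds DNA, 3 were lower. MCM3 was at 67.1, 48.1 and 90.7 in A31 and 26.5, 32.8 and 17 in DHC16 (log2 -1.40 ± 0.32, adjusted p = 0.016). MCM5 was lower by log2 -0.79 ± 0.17 (adjusted p = 0.014). SMC6A, of a complex that maintains chromosome structure, was higher, at 42.5, 38.9 and 45.7 in A31 and 77.6, 86.8 and 62.7 in DHC16 (log2 0.81 ± 0.22, adjusted p = 0.033). Without A31 library 1, 1 gene was lower and 0 higher, and the same counts were found without A31 library 7. Without A31 library 4 or DHC16 library 4, 3 were lower and 1 higher. With the replicate block 9 were lower. At 12 h 25 were lower and 1 higher, against 9.26% lower over all genes, and 11 were lower without DHC16 12 h library 13, 13 without library 16 and 16 without A31 12 h library 10 or 16.

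Remaining named genes with large differences were regulators or of less known roles. FXL1 and FXL7, with PAS sensor domains, were lower by log2 -1.75 ± 0.43 (adjusted p = 0.024) and -1.40 ± 0.38 (adjusted p = 0.034). ZMP1, a metallopeptidase-like protein, was lower by -1.93 ± 0.43 (adjusted p = 0.014). FAP296, an importin-like protein of the flagellum, was lower by -1.73 ± 0.44 (adjusted p = 0.026). RDP3, a rhodanese domain phosphatase, was higher, at 64.9, 59.5 and 56.9 in A31 and 227, 156 and 146 in DHC16 (log2 1.5 ± 0.20, adjusted p = 0.0018). CYG51, a guanylate cyclase (log2 -0.99), and APG10, an autophagy protein (log2 -0.75), were lower with adjusted p = 0.042 and 0.043, and neither was called by DESeq2.

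Before the treatment 0 of the 4 tested genes of the vitamin response were called. METE, the cobalamin-independent methionine synthase that cobalamin represses, was at 1050, 579 and 814 normalized counts in A31 and 935, 585 and 1004 in DHC16. The groups overlapped, and the log2 difference was 0.05 ± 0.24 (adjusted p = 0.91). Its sign turned under several settings. Of 4 tested genes responsive to cobalamin or thiamine, limma called 0, with 0 at an unadjusted p under 0.05, and edgeR and DESeq2 called 0 and 0. Among all named genes 10.3% were higher and 13.4% lower, so 0 calls in 4 genes lies near those shares.

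Differences at 0 h were partly present later. Among the genes higher at 0 h, 35.6% were also higher at 12 h and 15.6% at 48 h. These shared genes were 27.8% of those higher at 12 h and 15% of those higher at 48 h. Among the lower genes, 32.5% were lower at 12 h (19.8% of that list) and 17.1% at 48 h (20.1% of that list). Over all genes tested, 8.26% were higher and 9.26% lower at 12 h, and 962 and 685 of 14273 at 48 h. The Cre03 stretch is part of the 263 genes lower at both 0 h and 12 h, with 144 of its genes called lower at 0 h and 172 at 12 h. The overlap outside the stretches was not counted. At 12 h 65 genes were called with the opposite sign, and at 48 h 54 were. Across the 13067 genes tested at both times, the log2 differences at 0 h and 12 h had a Pearson r of 0.467, and across 13196 genes at 0 h and 48 h it was 0.272, as descriptions, since genes are not independent replicates. The strain differences at each time come from separate libraries, and A31 has 2 libraries at 48 h.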

How the data were processed

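The members and gene lists were chosen with earlier results of these data known. The authors deposited normalized counts per gene, a signal made by dividing the reads of each library by a single factor. All values (100%) came out as whole reads (tolerance 0.01). Per the submitters' processing notes, the authors' tools included edgeR 3.0.8, HTSeq 0.5.3p9, TopHat 1.3.1 and CASAVA 1.8.2. Tool settings, strandedness, annotation, genome build and scaling method were not given in the sources used here. Nothing in the labels states that replicates are separate cultures, and p-values may therefore reflect technical spread only.

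Genes averaging at least 1 on the per-million scale were tested with limma 3.58.1 (R 4.3.3, trend, Benjamini-Hochberg at 0.05) on log2(normalized count + 1), a scale that understates changes of low genes. Values in normalized counts are given per library, and differences are log2 DHC16 minus A31 ± SE, n = 3 each. Levels are not scaled by gene length, so deciles of level and shares of reads rank read numbers and not transcript numbers. Alternatives were other scalings, pseudocounts, filters, wider fits, a replicate block, each library left out, and edgeR 4.0.16 and DESeq2 1.42.0 on the recovered reads. The fit and the scan were tested on simulated data. Same-numbered libraries at 0 h had correlated deviations from their strain means (r = 0.269, 0.278 and 0.171), and differently numbered ones had r from -0.279 to 0.0511. The labels do not say what a number marks, so a pairing at 0 h was inferred from these data only. At 12 h the same-numbered values were 0.192, 0.006 and -0.022, and A31 library 13 with DHC16 library 16 reached 0.229. No pairing was therefore taken at 12 h, and a shared batch is not established at 0 h. The main fits did not use the pairing, so the SE and adjusted p given for genes are unpaired. Pairing entered only as the replicate block.

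Stretches are runs of at least 5 genes whose running median over 15 tested genes with 1 identifier prefix lay at least 0.5 from the median of all. The RefSeq table (assembly Chlamydomonas_reinhardtii_v5.5) matched 10455 tested genes (78%), each on the chromosome its prefix names. Genes were matched by names that carry the prefix, so this agreement is no separate check of position. The RefSeq table was used for order only. Named genes were the 12 with the largest called, non-overlapping differences in each direction and a mean of at least 30 in the higher strain, the largest called member of each list in each direction, METE and the Clp family, and 2 unnamed genes in each direction. BBS1, CGLD15, CPC1, HSP22E, LHCB4, MAS1, MCM5, ODA13, PRPL6, PSBQ, RAN1 and RSP1 were added after their values were seen, as were the flagellar subgroups. Lists with at least 5 tested members are in the plot of lists, and those with fewer than 3 gave 0 called genes.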

Additional observations from a re-analysis of the deposited data

Results flagged for a closer look

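For 16 of the genes described, the strain difference itself changed between 0 h and 12 h (limma test of the change, adjusted p under 0.05). The change is log2 at 12 h minus log2 at 0 h, and it was called for 3.49% of all genes tested. The 16 were chosen by their 0 h differences or after their values were seen, and the change uses the same 0 h values. A move toward 0 is thus partly built in by the choice, and these changes are descriptions. Differences that became more positive were those of PTB2 (1.72), PTB4 (1.90), GTR12 (2.13), PHC15 (2.17), ACS3 (1.25), MAS1 (0.88), NDA1 (1.29) and HSP22E (1.5). Among flagellar genes the same held for FAP43 (2.10), FAP63 (1.96), FAP251 (1.3), CPC1 (1.43) and RSP1 (1.32). Differences that became more negative were those of FAP212 (-2.47), SMC6A (-1.27) and Cre39.g785900 (-3.03).

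The 12 h levels of ACS3 were 25164, 27999 and 23872 normalized counts in A31 and 26793, 23407 and 28509 in DHC16, where the groups overlapped. GTR12 was at 89.7, 48.3 and 52.1 in A31 and 27.5, 18.7 and 25.9 in DHC16 at 12 h, still lower in DHC16. PTB2 was at 10.1, 5.45 and 10.6 in A31 and 338, 239 and 213 in DHC16 at 12 h, so that its difference had widened. FAP212 was at 12021, 7550 and 9375 in A31 and 9692, 6307 and 4674 in DHC16 at 12 h.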

How the results depend on the processing

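At 0 h, per-million scaling gave 137 genes higher and 7346 lower, and leaving out the 100 most abundant genes from that scaling gave 479 and 1830. With the filter raised to a mean of 10 (per-million scale), 482 were lower. With the replicate block 1853 were higher and 1515 lower, and leaving out 1 library gave 280 to 953 higher and 249 to 971 lower. The other settings, TMM, quantile, edgeR, DESeq2, pseudocount 5, no filter, fits of 17 or 15 libraries and the count outside the stretches, stayed within 1.5 times both counts. At 12 h 2512 genes differed, 4898 with per-million scaling and 1158 to 3169 with 1 library left out. At 48 h 1647 differed, 3111 with per-million scaling and 382 to 4676 with 1 library left out. The change from 0 h to 12 h was called for 500 genes, 1269 with per-million scaling, 835 with the replicate block and 170 to 707 with 1 library left out. The cause of these moves was not tested, apart from the shift of all genes with per-million scaling. Of the 59 described genes called at 0 h, 23 kept their call and sign under every alternative, and 0 lost it under the replicate block. Among all genes with a name the block added calls, with 24 plastid ribosomal genes higher in place of 15. Calls were lost for 15 with per-million scaling, 12 with quantile scaling, 15 in the fit of 17 libraries and 27 with some library left out. With per-million scaling the sign turned for DNJ34 (-0.16), HYDEF (-0.049), GSTS1 (-0.0094), CLPB3 (-0.56) and METE (-0.67), and without the 100 most abundant genes for CLPB3 (-0.070) and METE (-0.18). METE also turned with quantile scaling (-0.13), without A31 replicate 4 (-0.17) and without DHC16 replicates 1 (-0.046) and 7 (-0.097), and ran from -0.17 to 0.29 with 1 library left out. A running median over 25 genes, chosen after seeing the data as was the count outside the stretches, put 277 genes in stretches, against 311. It shared 272 of them, and Cre33 has too few genes for it.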
